A study of Mus musculus with 2 samples.

Results

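Proliferating T cells were examined in the nephritic kidney as the cells of the authors' proliferating cell cluster that carried at least 1 unique molecular identifier (UMI, the count of 1 captured transcript) of the T cell receptor complex, summed over the CD3 chains Cd3d, Cd3e and Cd3g and the receptor constant regions Trac, Trbc1 and Trbc2. This rule selected 180 of the 307 proliferating cells and of 7314 cells in all, 114 in the WT library and 66 in the Vsir-/- library. Because the cells were chosen by measured values (their cluster and their receptor UMIs), the cell cycle genes that define the cluster and the 6 receptor genes are given as a description.

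Both groups were C57BL/6 mice, 8 weeks of age, in the nephrotoxic serum nephritis (NTN) model: mice were primed with sheep immunoglobulin in complete adjuvant and received sheep nephrotoxic serum by vein 4 days later, which deposits antibody on the glomerulus. The groups differed by genotype, WT or Vsir-/-, a germline loss of the gene for VISTA, a surface protein that restrains T cell activation and is carried mainly by myeloid cells. No untreated kidney was among the samples. Each genotype was measured in 1 library of droplet single-cell RNA sequencing (10x, 3' ends), so every difference between genotypes below is a difference between 2 libraries, without a replicate and without a test, and every interval covers counting error only.

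T cells that meet antigen leave quiescence, copy their DNA in S phase with the MCM helicase and ribonucleotide reductase, and then separate the chromosomes in G2 and M phase with cyclin B, topoisomerase II, Aurora B and the kinetochore. Dividing lymphocytes of every lineage share this program, which can draw CD4+ T cells, CD8+ T cells, γδ T cells and natural killer (NK) cells into 1 cluster. The lineage of a dividing cell is then read from its receptors: Cd4 for helper and regulatory cells, Cd8a and Cd8b1 for cytotoxic T cells, Trdc for γδ T cells, and Ncr1 (NKp46) and Klrb1c (NK1.1) with no Cd3e for NK cells.

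Many genes of the program carry short shared letters upstream of their start: CCAAT, known as the box bound by NF-Y; TTTGAA or TTCGAA, the cell cycle homology element of genes that peak in G2 and M phase; and TTCCCGC or TTGGCGC, forms of the E2F site of genes that peak in S phase. RefSeq promoters (GRCm38.p6) of 2 of the markers that define these cells, the proliferation antigen Mki67 and topoisomerase Top2a, and of the hyaluronan receptor and spindle gene Hmmr, among the genes most raised in the dividing cells, are printed as runs rich in these letters, chosen for that and not as typical. Each run holds the 200 bases before the start, 5′ to 3′ on the gene's strand, and capitals mark the letters named above on either strand (CCAAT reads ATTGG and TTTGAA reads TTCAAA on the other strand, and TTCGAA is its own reverse complement).
Mki67 (chr7:135716380-135716579, minus strand): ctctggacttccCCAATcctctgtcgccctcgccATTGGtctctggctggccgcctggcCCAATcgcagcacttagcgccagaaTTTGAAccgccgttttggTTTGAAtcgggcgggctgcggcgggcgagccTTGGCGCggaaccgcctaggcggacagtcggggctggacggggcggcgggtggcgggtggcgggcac
Top2a (chr11:99024190-99024389, minus strand): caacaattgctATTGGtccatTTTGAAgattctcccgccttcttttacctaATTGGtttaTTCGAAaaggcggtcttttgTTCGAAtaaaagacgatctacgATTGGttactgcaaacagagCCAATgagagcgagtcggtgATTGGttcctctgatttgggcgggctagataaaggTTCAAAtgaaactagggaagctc
Hmmr (chr11:40733438-40733637, minus strand): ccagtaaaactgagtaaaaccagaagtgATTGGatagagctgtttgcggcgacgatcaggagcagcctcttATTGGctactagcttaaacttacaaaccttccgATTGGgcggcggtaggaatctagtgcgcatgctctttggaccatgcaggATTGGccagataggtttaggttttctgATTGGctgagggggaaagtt

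In this window Mki67 held 3 CCAAT boxes, TTTGAA at -116 and -98 and TTGGCGC at -67, counted from the start, whereas Top2a held 5 CCAAT boxes, 2 TTTGAA and 2 TTCGAA, and Hmmr held 5 CCAAT boxes, all on the other strand. Over the 250 bases before the start, CCAAT lay in 36 of the 47 G2/M phase list genes with a promoter in the table (76.6%) and 22 of 31 S phase list genes (71.0%), against 34.5% of all 27025 promoters. TTTGAA or TTCGAA lay in 20 of 47 G2/M genes (42.6%) and 5 of 31 S phase genes (16.1%), against 17.4% of all promoters. The order was the opposite for TTCCCGC or TTGGCGC, found in 14 of 31 S phase genes (45.2%), 5 of 47 G2/M genes (10.6%) and 5.71% of all promoters. Of the 8 defining or most raised genes with a promoter in the table, 4 held CCAAT and 2 held TTTGAA or TTCGAA, and Birc5, Nusap1 and Nuf2 held none of the letters searched. Of the 7 chromosomal passenger and cytokinesis genes with a promoter, 5 held CCAAT and 1 TTTGAA or TTCGAA. These are matches of letters, and no binding was measured.

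The 2 libraries differed in ways other than genotype, and these bear on each comparison below. By the labels, WT cells had been sorted for CD45 and Vsir-/- cells had not been sorted, whereas the study's methods state a CD45+ sort. Vsir was present at 63.2 CPM (UMIs per 1000000 UMIs of the same cells) in the WT cells and at 0 UMIs in the Vsir-/- cells, as the labels state. Xist, the RNA of the inactive X chromosome, had 0 UMIs in the whole WT library and 16405 in the Vsir-/- library, and the Y-linked Ddx3y had 1779 and 0, so the libraries came from animals of different sex although the methods name males alone. Genotype, sex, sort and library cannot be told apart.

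The libraries were also counted with different gene names. Of 20299 symbols, 195 had 100 or more UMIs in WT and 0 in Vsir-/- and 1011 the reverse, and 100 of the 195 were older names of a symbol at 0 in WT. Of the kidney tubule list, 20 of the 30 genes had 0 UMIs in WT and UMIs in Vsir-/-, as had 4 of the 9 genes of the endothelium list. None of these had an older name among the 100, and gene naming and the sort cannot be told apart as their source. By level, 66 genes were higher and 58 lower in Vsir-/- by 8-fold or more in every one of the 4 kinds of cells compared (the dividing cells, B cells, neutrophils and NK cells), Nme2, Atp6v0c and Coro1b among them. Of these 124 genes, 94 had 0 UMIs in 1 library, and 56 belonged to the pairs of older and newer names. Apart from Vsir and Xist, they are not described further. No gene of the S phase, G2/M phase or T cell receptor lists was at 0 in 1 library alone.

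The dividing cells were deep: the median was 15647.5 UMIs per WT cell and 14311.5 per Vsir-/- cell, against 5331 and 5943 in cells of the 4 T cell clusters with a receptor UMI. Receptor UMIs had a median of 32 per WT cell (range 1 to 208) and 43 per Vsir-/- cell (range 1 to 359). At the edge of the rule, 4 WT and 15 Vsir-/- cells held exactly 1 receptor UMI, and 4 WT and 123 Vsir-/- proliferating cells held 0. Ptprc (CD45) was detected in all 4 of those WT cells at 1 UMI and in 4 of the 15 Vsir-/- cells, of which 9 had 20 or more endothelium UMIs. A single receptor UMI was common in cells that should lack it: 14.6% of WT B cells (median depth 3426 UMIs) and 26.9% of WT neutrophils (3565 UMIs) had at least 1, as did 4.55% and 5.06% of Vsir-/- B cells (3596.5 UMIs) and neutrophils (4097 UMIs). None of the 180 cells had a barcode present in both libraries.

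The label of T cells therefore held for most, but not all, of the cells. At least 2 UMIs of Cd3d and Cd3e, the signal-transducing chains of the receptor, were present in 73 of the 114 cells of WT (64.0%, 95% Clopper-Pearson interval 54.5 to 72.8) and 40 of the 66 of Vsir-/- (60.6%, 47.8 to 72.4). Most of the remainder in WT were 39 cells with at least 2 UMIs of Ncr1 and Klrb1c, fewer than 2 of Cd3d and Cd3e, and neither Cd4 nor Cd8 (34.2%, 25.6 to 43.7), with 9 such cells in Vsir-/- (13.6%, 6.43 to 24.3). Cd3e was at 0 UMIs in all 39 and all 9. Trbc1 or Trbc2 was present in 37 of the 39 and all 9, with a median of 9 UMIs per WT and 6 per Vsir-/- cell, transcripts that NK cells also hold, as 69.2% of the cells of the WT NK cluster had a Trbc1 UMI. They are called NK-receptor cells here. The division by CD3 chains and NK receptors was chosen after seeing the data.

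A further 16 Vsir-/- cells (24.2%, 14.5 to 36.4) and 1 WT cell had neither Cd4 nor Cd8 and fell short of the minimums for CD3 chains and NK receptors. The 16 held 1 to 3 receptor UMIs, a median of 1 UMI of the leukocyte list and were unlike one another: 10 held 24 to 964 UMIs of the endothelium list and the other 6 held 0 to 8, while 4 held 378 to 586 UMIs of the kidney tubule list, against a median of 52.5. Their median depth was 32638 UMIs and Mki67 was at 359 CPM. UMIs of the leukocyte list numbered 0 to 2 in 12 of them and 9 to 18 in the other 4, 1 of which held 9 in a depth of 1323 UMIs. As a set they are not described as T cells.

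**Figure D1:**
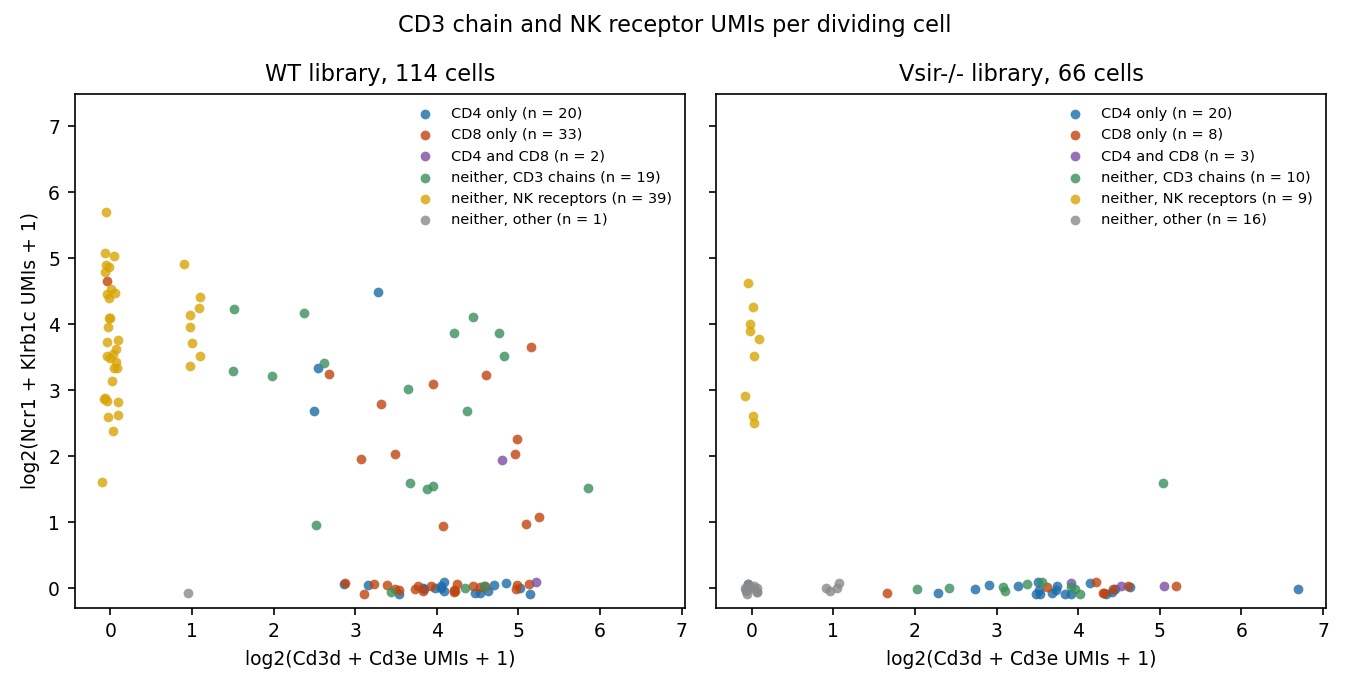
UMIs of the CD3 chains Cd3d and Cd3e (x axis, log2 of UMIs + 1) and of the NK receptors Ncr1 and Klrb1c (y axis, log2 of UMIs + 1) in each dividing cell, colored by receptor class, with a small random shift of each point. The WT panel shows a column of 39 NK-receptor cells at the left, and cells with CD3 chains that also rise on the NK receptor axis, which 1 cell does in the Vsir-/- panel.

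With Cd4 and with Cd8a or Cd8b1 as markers, cells with Cd8 alone outnumbered those with Cd4 alone in WT, and the reverse held in Vsir-/-. By nearest cluster profile, 54.4% of WT cells matched a cluster named CD4+ and 12.3% clusters named CD8+. These names do not give the lineage of a cell, as described below. In WT, 20 cells carried Cd4 alone (17.5%, 11.1 to 25.8), 33 carried Cd8 alone (28.9%, 20.8 to 38.2), 2 carried both and 59 neither. In Vsir-/-, 20 carried Cd4 alone (30.3%, 19.6 to 42.9), 8 carried Cd8 alone (12.1%, 5.38 to 22.5), 3 carried both and 35 neither. Among cells with 1 lineage marker, Cd8 alone thus made up 33 of 53 in WT (62.3%, 47.9 to 75.2) and 8 of 28 in Vsir-/- (28.6%, 13.2 to 48.7), and the intervals overlapped slightly. The non-dividing T cells of the same libraries differed in the same direction: 64.1% in WT and 48.0% in Vsir-/- over the 4 T cell clusters, and 67.2% and 40.1% in the effector memory (EM)-like clusters, and the interval of the dividing cells included the EM-like share in both libraries.

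Background detection of these markers was low. Cd4 was found in 0.516% of WT B cells and 3.24% of WT neutrophils, Cd8a in 0.722% and 1.34%, and Cd8b1 in 1.55% and 2.86%, at the depths given above. In Vsir-/- these were 1 of 88 B cells and 0 of 158 neutrophils for Cd4, which allows up to 2.31% of neutrophils, 1 and 1 for Cd8a, and 0 and 2 for Cd8b1. The dividing cells were deeper than these cells, and Cd4 is sparse: thinned to 1000 UMIs, the Cd4-alone share fell to 6.14% in WT and 7.58% in Vsir-/-, and 81.6% and 81.8% of cells had neither marker. A cell with neither marker is therefore not shown to lack the protein.

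**Figure D2:**
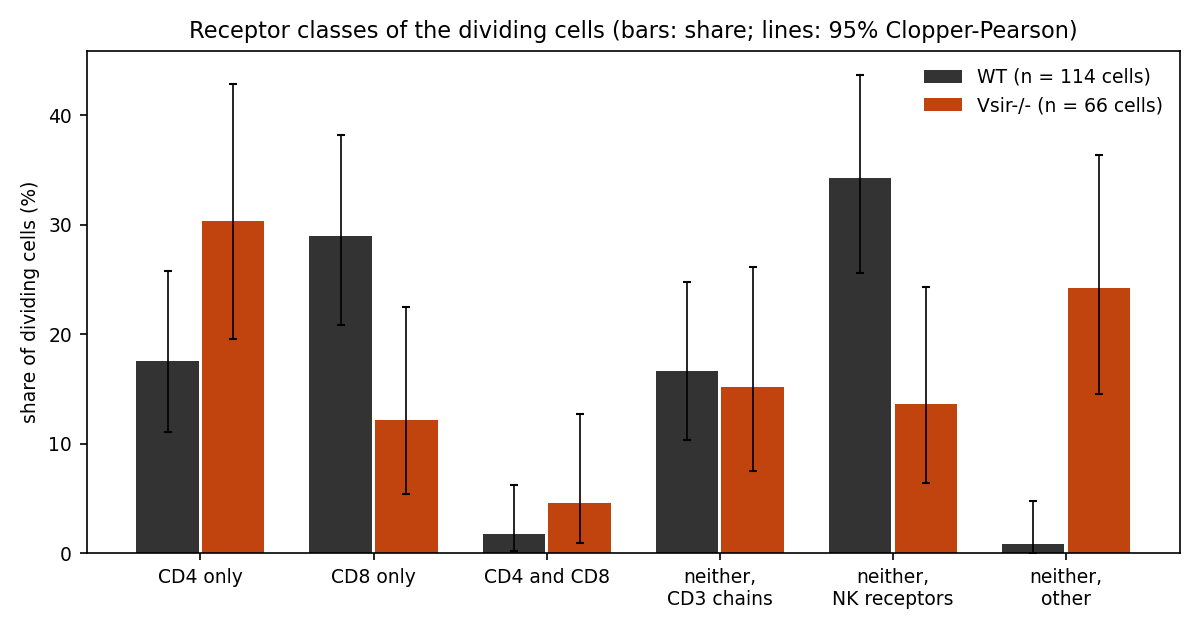
Share of dividing cells (y axis, percent) in each receptor class (x axis) for the WT (n = 114 cells) and Vsir-/- (n = 66 cells) library; bars are shares and lines 95% Clopper-Pearson intervals. Cells with Cd8 alone (28.9% and 12.1%) and NK-receptor cells (34.2% and 13.6%) took larger shares in WT, and cells with neither lineage marker, CD3 chains nor NK receptors in Vsir-/- (0.877% and 24.2%).

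Restricted to cells with CD3 chains, the classes were Cd4 alone in 20 of 73 for WT (27.4%) and 19 of 40 for Vsir-/- (47.5%), Cd8 alone in 32 (43.8%) and 8, both in 2 and 3, and neither in 19 and 10. Rarer lineages were few. Foxp3, the regulatory T cell factor, had a UMI in 5 of the 73 and 1 of the 40, against 0 of 969 B cells and 3 of 524 neutrophils in WT. Cells of γδ type, with at least 5 Trdc UMIs, CD3 chains and neither Cd4 nor Cd8, numbered 4 in WT and 1 in Vsir-/-; 1 more WT cell, with Cd8, held 8 Trdc UMIs and CD3 chains and was not counted. The Vsir-/- cell held 110 Trdc UMIs, 8 of Trdv4 and 0 of Trac. The 4 WT cells held 8, 13, 22 and 5 Trdc UMIs and 0 of Trdv4, and 3 of them had 0 Trac UMIs. Of these 4, the cell with 8 Trdc UMIs also held 70 UMIs of the B cell list.

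NK receptors on cells with CD3 chains differed between the libraries by more than the counting error. An Ncr1 or Klrb1c UMI was present in 32 of the 73 WT dividing cells with CD3 chains (43.8%, 32.2 to 55.9) and in 1 of the 40 Vsir-/- cells (2.5%, 0.0633 to 13.2). B cells and neutrophils gave 1.96% and 2.48% in WT and 0% and 0.633% in Vsir-/-, and the NK cluster 98.5% in each. At an equal depth of 3000 UMIs the shares were 17 of 72 (23.6%) and 1 of 40 (2.5%). Within WT the share was 3 of 20 with Cd4 alone, 12 of 32 with Cd8 alone (37.5%) and 16 of 19 with neither marker (84.2%). Klrd1 (CD94), a receptor chain of NK and cytotoxic T cells, had a UMI in 52 of the 73 cells of WT (71.2%) and 9 of the 40 of Vsir-/- (22.5%), against 2.79% and 3.41% of B cells. Without division, an Ncr1 or Klrb1c UMI was found in 197 of 526 WT EM-like cells with CD3 chains (37.5%) and 24 of 249 Vsir-/- cells (9.64%). Over all 4 T cell clusters the difference was smaller, at 218 of 2038 (10.7%, 9.39 to 12.1) and 25 of 379 (6.60%, 4.31 to 9.58), with intervals that overlapped slightly. CD3 chains were themselves found in the NK cluster: Cd3d in 21.4% of WT and 7.46% of Vsir-/- cells, and Cd3e in 11.3% and 0%. Some cells counted here may thus be NK cells with a few CD3 chain UMIs. This comparison was chosen after seeing the data. The part of such cells in it, and of doublets of a T cell and an NK cell, was not tested.

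In WT, the rest of the transcriptome placed most cells with Cd4 alone and most NK-receptor cells in clusters named for the same lineage. Most cells with Cd8 alone were not placed in clusters named CD8+. Each cell was assigned to the lymphoid cluster of the WT library whose summed profile it matched best, with cell cycle and receptor genes left out, a procedure that placed 1395 of 1513 held-out cells correctly (92.2%), but only 15 of 27 γδ T cells and 76 of 97 EM-like CD8+ cells (78.4%), of which 20 went to NK cells. The held-out cells came from those same WT clusters, so these shares do not measure accuracy for dividing or Vsir-/- cells. In WT, 62 of the 114 cells were nearest to the cluster named EM-like CD4+, 35 to NK cells and 13 to EM-like CD8+ cells. Another 3 were nearest to NKT cells and 1 to non-EM-like CD8+ cells. A cluster name is not a lineage call. In the WT EM-like clusters, 195 of the 290 cells with 1 lineage marker carried Cd8 alone. The cluster named EM-like CD4+ held 489 cells, so most of its cells did not carry Cd4 alone. Nearness to it therefore does not reverse the order by markers. Cells with Cd4 alone went to the EM-like CD4+ profile in 18 of 20 cases, and so did 18 of the 33 cells with Cd8 alone, while 9 of the 33 went to EM-like CD8+ cells, 5 to NK cells and 1 to non-EM-like CD8+ cells. NK-receptor cells were nearest to NK cells in 24 of 39. In Vsir-/-, 26 of 66 were nearest to EM-like CD4+ cells and 27 to γδ T cells. The 27 included 15 of the 16 cells without lineage markers, CD3 chains or NK receptors. Of the 20 Vsir-/- cells with Cd4 alone, 8 went to EM-like CD4+ cells and 8 to γδ T cells. Then all other clusters and a profile of receptor-negative Vsir-/- cells from the authors' CD4+ non-EM-like cluster were added (chosen after seeing the data). With these, 21 went to that profile, 15 of them cells without lineage markers, CD3 chains or NK receptors, and 7 were nearest to γδ T cells.

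With the marker rule used here, the share of each lineage found in division was similar for CD4+ and CD8+ cells of the WT kidney. The WT share for Cd4 moved up or down under other settings, as given under the processing. Cells with Cd4 alone were in the dividing cluster in 20 of 528 (3.79%, 2.33 to 5.79) and cells with Cd8 alone in 33 of 940 (3.51%, 2.43 to 4.90). In Vsir-/- these were 20 of 139 (14.4%, 9.02 to 21.3) and 8 of 118 (6.78%, 2.97 to 12.9). The Cd4 intervals of the libraries did not overlap. Against EM-like cells alone the shares were 20 of 115 (17.4%, 11.0 to 25.6) and 20 of 102 (19.6%, 12.4 to 28.6) for Cd4, and 33 of 228 (14.5%, 10.2 to 19.7) and 8 of 63 (12.7%, 5.65 to 23.5) for Cd8, with overlapping intervals. NK-receptor cells stood at 39 of 633 (6.16%, 4.42 to 8.33) in WT and 9 of 76 (11.8%, 5.56 to 21.3) in Vsir-/-, measured with the NK cluster, and γδ-type cells, without Cd4 and Cd8, at 4 of 50 (8.0%) and 1 of 29 (3.45%), measured with all cells of the γδ T cluster. Dividing cells were deeper than the others. With every cell thinned to 3000 UMIs the shares against the 4 clusters were 2.38% and 13.8% for Cd4 and 3.21% and 8.74% for Cd8 in WT and Vsir-/-.

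**Figure D3:**
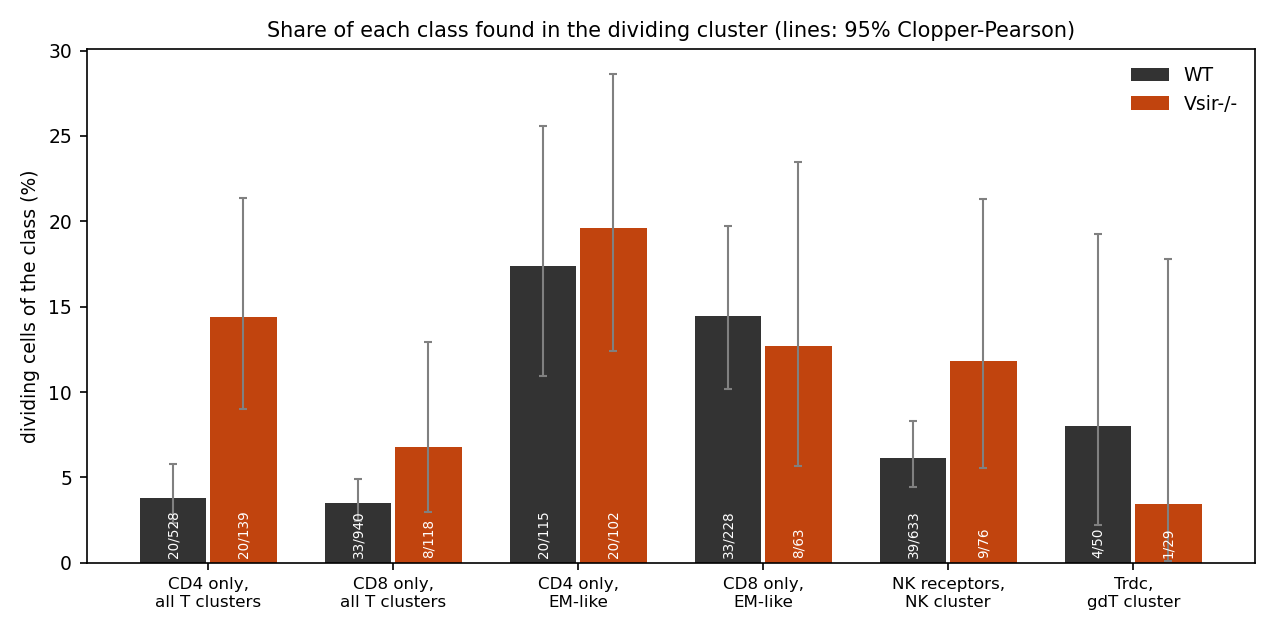
Percent of each class found in the dividing cluster (y axis) by class and denominator (x axis), for WT and Vsir-/-; bars are shares, lines 95% Clopper-Pearson intervals, and the counts stand in the bars. The Cd4-alone bars are 3.79% and 14.4% against all 4 T cell clusters and 17.4% and 19.6% against the EM-like clusters.

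UMIs of the G2/M phase list outnumbered those of the S phase list in most cells. The S list share, the UMIs of the S phase list over those of the S and G2/M lists, had a median of 0.219 in WT (range 0.0101 to 0.641) and 0.197 in Vsir-/- (range 0 to 0.682). S list UMIs exceeded G2/M UMIs in 13 of the 114 cells of WT (11.4%, 6.21 to 18.7) and 10 of the 66 of Vsir-/- (15.2%, 7.51 to 26.1), and 18 and 11 cells lay between 0.4 and 0.6. The lists differ in abundance, so the value of 0.5 is not a boundary between phases and no phase was assigned. With the MCM list set against the chromosomal passenger list, 29.8% of WT cells lay above 0.5. By class, the WT medians were 0.270 for Cd4 alone, 0.229 for Cd8 alone, 0.243 for CD3 chains with neither marker and 0.204 for NK-receptor cells. The Vsir-/- medians were 0.158, 0.392, 0.126 and 0.0648, from 20, 8, 10 and 9 cells, and the ranges of all classes overlapped.

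**Figure D4:**
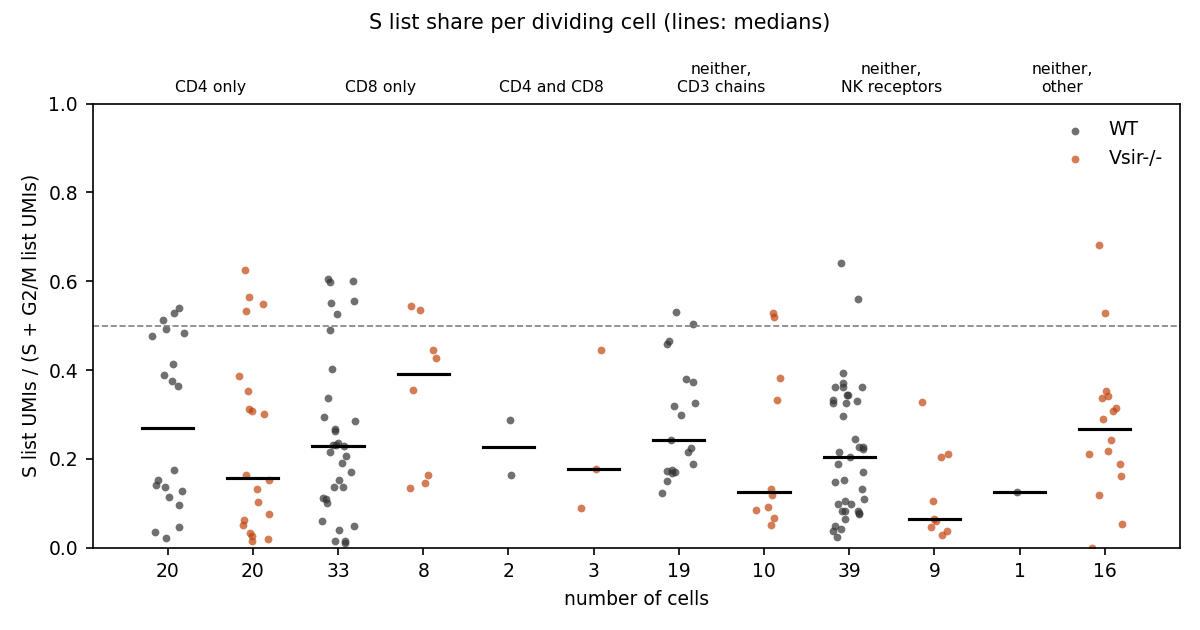
S list UMIs over S plus G2/M list UMIs in each dividing cell (y axis) by receptor class and library (x axis, with the number of cells); points are cells, black lines medians and the dashed line 0.5. Most cells lie under 0.5 in both libraries, and the classes overlap.

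The given markers of the cycle were present in each of the 8 classes listed here. Mki67 was at 1238 CPM in WT cells with Cd4 alone, 730 with Cd8 alone, 828 with CD3 chains and neither marker, and 808 in NK-receptor cells, and at 995, 649, 840 and 981 CPM in the Vsir-/- classes. Top2a was at 1023, 680, 930 and 1009 CPM in WT and 1033, 617, 1180 and 913 in Vsir-/-. Birc5 (survivin, of the chromosomal passenger complex) ranged from 431 to 583 CPM and Stmn1 (stathmin, a microtubule regulator) from 1170 to 1800 CPM over these 8 classes. Cd3e, the marker of the T lineage, was at 411, 504 and 287 CPM in the WT T cell classes and 461, 296 and 311 CPM in those of Vsir-/-, and at 0 in NK-receptor cells of both. These values are a description, since the cycle markers define the cluster and Cd3e the classes.

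Against the 4 T cell clusters, the WT dividing cells showed the program that defines the cluster. Of 10882 genes with at least 20 UMIs, 16.8% were higher by 2-fold or more and 9.76% lower. All 6 MCM helicase genes, 13 of 13 kinetochore and checkpoint genes, 51 of 53 G2/M genes and 39 of 43 S phase genes were among the higher. The histone gene Hist1h2ab (log2 ratio 8.90), Hmmr (8.83), Ccna2 (cyclin A2, 8.53), the spindle gene Nusap1 (8.39), and the mitotic kinases Aurkb (8.14) and Plk1 (8.14) led the list. Among the 10 lowest were Igfbp4 (-5.01), Dapl1 (-4.04) and the interleukin 7 receptor Il7r (-3.58), which mark naive and resting T cells. Others there included Ly6c1 (-4.05) and Rapgef4 (-3.66). Of 10 naive T cell genes, 8 were lower. The WT dividing cells in this comparison included the 39 NK-receptor cells, whereas the reference was T cell clusters alone. In Vsir-/-, 14.5% of 11370 genes were higher and 7.15% lower, with 52 of 54 G2/M and 37 of 43 S phase genes higher. The highest ratios there were those of Dlk1 (7.76) and Dcn (6.51), stromal genes, with 87.3% and 97.9% of their UMIs in 1 cell each. With the 40 Vsir-/- dividing cells that had CD3 chains, 7.63% of 10707 genes were higher and 16.6% lower, so that lower genes were the more numerous. Among the lower were 24 of 28 kidney tubule genes (list median -2.50) and 2 of 9 endothelium genes, with 0 higher in either list. Of the cycle lists, 50 of 51 G2/M and 38 of 41 S phase genes were higher.

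Since the dividing cells resembled EM-like cells, each lineage was next set beside EM-like cells with the same marker, a comparison chosen after seeing the data. In WT cells with Cd4 alone, 9.91% of 5550 genes were higher by 2-fold or more and 7.93% lower, and 48 of 48 G2/M and 30 of 33 S phase genes were higher. Mki67 went from 54.9 CPM in 95 EM-like cells to 1238 CPM (log2 ratio 4.48, 3.99 to 5.04). Of the list of costimulation and cytokine receptors 4 of 12 genes were lower and 0 higher, and of the naive T cell list 2 of 9 lower and 0 higher. Single genes that were lower included Tnfsf8 (CD30 ligand) from 178 to 10.9 CPM (-3.86), Il7r from 337 to 46.3 CPM (-2.83), and Cxcr6, a receptor of tissue-resident T cells, from 423 to 87.1 CPM (-2.26). The dissociation stress list had 6 of 11 genes lower, Fos from 303 to 78.9 CPM among them. Gzma (granzyme A) went from 615 to 2340 CPM (1.93), but 39.4% of its UMIs lay in 1 cell and 9 of the 20 cells had any.

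In WT cells with Cd8 alone, Ccl4, Xcl1 and Ccl3, chemokines of activated cytotoxic cells, were among the genes with the lowest ratios in division. Ccl4 was at 934 CPM in EM-like and 106 CPM in dividing cells (-3.12, -3.58 to -2.72), Xcl1 at 1156 and 167 CPM (-2.78), Ccl3 at 281 and 47.8 CPM (-2.53) and Ccl5 at 16960 and 5390 CPM (-1.65). Cxcr6 was also lower, at 314 and 49.9 CPM (-2.62). So were Trdc (-2.56) and the NK receptor gene Klra9 (-2.12), markers of γδ T and NK-type cells. Of the type 1 list 5 of 11 genes were lower and 0 higher, and of the activation and effector list 6 of 23 lower and 0 higher, beside 8.35% of all 6933 genes compared being lower and 7.59% higher. Granzyme B (Gzmb) was at 881 and 473 CPM (-0.89), short of 2-fold.

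Dividing and EM-like cells of Vsir-/- with Cd4 alone were compared in the same way, beside 9.95% of 5538 genes higher and 8.85% lower. Of the type 1 list 3 of 10 genes were lower and 0 higher, and of the type 17 list 1 of 6 lower and 0 higher. Ifng was at 586 CPM in the EM-like and 112 CPM in the dividing cells (-2.37, -2.96 to -1.87), Xcl1 at 498 and 147 CPM (-1.75), and Il17a at 551 and 175 CPM (-1.65). The Ifng UMIs of the dividing cells came from 7 of 20 cells, and 48 of their 50 Il17a UMIs from 1 cell. Among the highest ratios were Mgp (7.74) and Bgn (5.76), genes of mesenchymal cells, and Lyz2 (4.43), and 1 cell held all of the Mgp UMIs, 99.4% of those of Bgn and 96.9% of those of Lyz2. Cells with at least 20 UMIs of other types were then left out on either side. Other types are here the B cell, macrophage and monocyte, endothelium, and podocyte and mesenchyme lists. The kidney tubule list was not counted. Without these cells, 8.22% of 5051 genes were higher and 9.94% lower, and 3 of 10 type 1 genes were lower and 0 higher. Of the kidney tubule list 21 of 24 genes were lower and 0 higher. Ifng was then at -1.97, Xcl1 at -1.49 and Il17a at -1.40. In WT, Ifng with Cd4 alone was at 126 and 43.5 CPM, from 78 and 16 UMIs.

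The D-type cyclin Ccnd2, which drives entry from quiescence, was lower in division in each lineage examined, with log2 ratios of -1.53 for Cd4 and -1.45 for Cd8 in WT, -1.79 for Cd4 in Vsir-/- and -1.53 for NK-receptor cells against the NK cluster in WT. The survival gene Bcl2 was lower by 2-fold or more in WT, at -1.12, -1.03 and -2.17 for Cd4, Cd8 and NK-receptor cells, and at -0.81 in Vsir-/- cells with Cd4 alone, where the interval (-2.03 to 0.18) included 0. Ccnd3 was at 261 CPM in dividing and 258 CPM in EM-like WT cells with Cd4 alone.

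NK-receptor cells of WT, set against the NK cluster, gained the cycle program (49 of 51 G2/M and 28 of 41 S phase genes higher, with 9.59% of 9017 genes higher and 7.41% lower) and had 3 of the 10 genes of the NK list lower by 2-fold or more (Klra8, Klra4 and Klrb1c) and 0 higher. Of the cytotoxic list 2 of 10 were lower and 1 higher. Mki67 was at 808 CPM in division and 29.8 CPM in the cluster. Ccl5 was at 5850 and 26556 CPM (-2.18), perforin (Prf1) at 597 and 1777 CPM (-1.57) and Gzmb at 570 and 1615 CPM. Gzma, at 11680 and 15587 CPM (-0.42), stayed under 2-fold, as did Ncr1, at 566 and 702 CPM (-0.31). Because Ncr1 and Klrb1c UMIs selected this class, the levels of these genes are given as a description only. In 6 of the 39 cells 20 or more UMIs of the macrophage and monocyte list were present, against a median of 1, and all 8 of that list's genes compared were higher than in the NK cluster; their part in the other differences was not tested.

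Within the dividing cells, the CD8+ lineage was marked by cytotoxic and NK receptor genes and the CD4+ lineage by Maf. In WT, 4.05% of 4991 genes were higher by 2-fold or more with Cd8 alone and 4.89% lower. Ccl5 was at 626 CPM with Cd4 alone and 5390 CPM with Cd8 alone (3.10, 2.91 to 3.31), Klrd1 at 78.9 and 417 CPM (2.38), the related receptor Klre1 at 87.1 and 415 CPM (2.23) and Gzmb at 114 and 473 CPM (2.04). Cd74, with 29 and 227 UMIs, had the second highest ratio (2.62). Its UMIs with Cd8 alone were 16 without a cell that held 120 UMIs of the macrophage and monocyte list. Of the cytotoxic list 6 of 9 genes were higher and of the NK list 5 of 8. A WT cell with Cd8 alone and 0 UMIs of Cd3d and Cd3e held 26 of the 84 Ncr1 and Klrb1c UMIs of its class. Maf, a transcription factor of helper and regulatory cells, was at 275 and 43.4 CPM (-2.63), Ly6a at 1031 and 265 CPM (-1.96) and Cd5, an inhibitor of receptor signaling, at 288 and 99.9 CPM (-1.52). Tbx21 (T-bet) was at 87.1 and 86.9 CPM, a difference of -0.01 with an interval of -0.71 to 0.71.

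The Vsir-/- cells gave the same order for the genes with enough UMIs, from 20 and 8 cells: Ccl5 at 234 CPM with Cd4 alone and 1369 CPM with Cd8 alone (2.54), Gzmb at 10.5 and 476 CPM (5.29, from 3 and 74 UMIs), and Maf at 234 and 45.0 CPM (-2.29). There 6.99% of 3446 genes were higher and 12.0% lower. The Cd8-alone class of Vsir-/- included a cell with 435 UMIs of the endothelium list, and the endothelial gene Fabp4 (5.45) had the highest ratio. Without cells holding at least 20 UMIs of other types, 4.76% of 2626 genes were higher and 11.4% lower, from 17 and 7 cells, Ccl5 was at 2.71 and Gzmb at 5.49, and Maf had 62 UMIs with Cd4 alone and 0 with Cd8 alone. Of the G2/M genes, which define the cluster, 9 of 52 in WT and 20 of 46 in Vsir-/- were lower by 2-fold or more with Cd8 alone, and 0 were higher, with Mki67 at -0.76 and -0.61, beside list medians of -0.53 and -0.93 and medians of all genes of -0.05 and -0.04. Without cells with UMIs of other types, as above, 15 of 43 were lower in Vsir-/- and 0 higher, with a list median of -0.58, and Mki67 was at -0.22 with an interval of -0.59 to 0.13.

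Between genotypes, the CD4+ dividing cells of Vsir-/- had lower levels of Gzma and of naive T cell and NK receptor genes and higher levels of stress genes, while Mki67, Top2a and Birc5 differed by less than 2-fold. Of 4516 genes, 8.86% were higher in Vsir-/- by 2-fold or more and 5.89% lower. Mki67 was at 1238 CPM in WT and 995 CPM in Vsir-/- (-0.31), Top2a at 1023 and 1033 CPM (0.02) and Birc5 at 552 and 583 CPM (0.08). Gzma was at 2340 and 105 CPM (-4.46, -5.06 to -3.96), present in 9 of 20 and 1 of 20 cells. Most WT cells of the class thus held none. The cytotoxic list had 2 of 6 genes lower and 1 higher. Ly6c2 was at 408 and 129 CPM (-1.64), Itga4 (integrin α4) at 365 and 129 CPM (-1.48) and Tbx21 at 87.1 and 24.4 CPM (-1.76). The naive T cell list had 6 of 9 genes lower and 0 higher, and the NK list 4 of 6 lower and 0 higher. Gzma is itself on the NK list, so these are not separate results. Few WT cells carried that list: 4 of the 20 held 20 or more of its UMIs. The median was 1.5 and the highest value 444. Ncr1 was detected in 3 of the 20 WT cells and Klrd1 in 6, and neither had a UMI in the 20 Vsir-/- cells.

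Higher in the CD4+ dividing cells of Vsir-/- were Tmem176b, a membrane protein, at 13.6 and 384 CPM (4.69; 3 and 13 of 20 cells), Tnfsf8 at 10.9 and 216 CPM (4.16; 1 and 9 cells) and Cxcr6 at 87.1 and 255 CPM (1.54, 0.93 to 2.20; 10 and 17 cells). Ifng was at 43.5 and 112 CPM (1.34, 0.45 to 2.32), in 7 cells of each library, and its UMIs were 16 and 32. Tmem176b was not particular to these cells, since in B cells it was at 4.88 and 461 CPM (6.52). The high ratios of Lyz2 and Cd74 came mostly from 1 cell: Lyz2, a macrophage lysozyme, had 18 and 254 UMIs (4.14), 96.9% of the latter in 1 Vsir-/- cell, and Cd74, of antigen presentation, had 29 and 239 UMIs (3.38), 69.0% of the latter in 1 cell. Transcripts of other types were present in this class, since 1 of the 20 Vsir-/- cells held 257 UMIs of the macrophage and monocyte list, another held 102 of the endothelium list, and 1 more had 0 UMIs of Cd3d and Cd3e and 5 of the leukocyte list in 25945 UMIs. Of these 3 Vsir-/- cells, 1 held 573 UMIs of the podocyte and mesenchyme list, and all 3 were counted in the dividing shares above. Each had at least 20 UMIs of other types, the kidney tubule list not counted, and these 3 cells were then left out. Without them, the log2 ratio was -0.85 for Lyz2, with an interval that included 0, and 0.61 for Cd74. It was 4.80 for Tmem176b, 4.46 for Tnfsf8, 1.67 for Cxcr6, 1.55 for Ifng and 2.99 for Fos. Then 7.29% of 4154 genes were higher and 6.5% lower. Of the NK list 6 of 6 genes were lower, of the naive list 5 of 9 lower and 1 higher, and of the cytotoxic list 2 of 6 lower and 1 higher. The dissociation stress list had 8 of 11 genes higher, with Fos at 78.9 and 751 CPM (3.23), Dusp1 at 89.8 and 506 CPM (2.48) and Fosb at 84.3 and 471 CPM (2.46). Fos was also higher in the NK cluster of Vsir-/- (1.53), but not in B cells (0.06) or neutrophils (-0.73), and the part of tissue dissociation was not tested. The kidney tubule list, of which every one of the 20 Vsir-/- cells held at least 10 UMIs, stood at 348 and 1403 CPM, with the symbols absent from WT as stated above.

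CD8+ dividing cells rested on 33 WT and 8 Vsir-/- cells, and 9.33% of 4128 genes were higher in Vsir-/- by 2-fold or more and 10.8% lower. Ifng was at 113 CPM in WT and 264 CPM in Vsir-/- (1.23, 0.60 to 1.84), in 21 of 33 and 5 of 8 cells, and Cxcr6 at 49.9 and 193 CPM (1.94). Gzma was at 3835 and 977 CPM (-1.97) and Ccl5 at 5390 and 1369 CPM (-1.97), whereas Gzmb was at 473 and 476 CPM (0.01, -0.39 to 0.39). Cytotoxic genes therefore did not move as 1 group: 2 of 8 were lower and 0 higher. NK-type genes were lower, Fcer1g at 356 and 25.7 CPM (-3.63) and Klre1 with 191 and 14 UMIs (-2.16), as were 7 of the 8 genes of the NK list. Of the naive list 7 of 9 genes were lower, Tcf7 (TCF-1) at 158 and 19.3 CPM among them, from 73 and 3 UMIs. In 1 of the 8 Vsir-/- cells, which supplied 45963 of the 155565 UMIs of the class and held 5 receptor UMIs, the endothelium list reached 435 UMIs. Cells holding at least 20 UMIs of other types, the kidney tubule list not counted, were then left out, which left 32 WT and 7 Vsir-/- cells. The NK list was not counted for this limit either. The WT cells kept thus included 1 with 0 UMIs of Cd3d and Cd3e. It held 26 of the 84 Ncr1 and Klrb1c UMIs of the 33 WT cells. The log2 ratios were 1.63 for Ifng, 2.29 for Cxcr6, -1.70 for Gzma, -1.69 for Ccl5 and 0.41 for Gzmb. Those of Fcer1g, Klre1 and Tcf7 were -3.47, -1.86 and -2.91. Of 3610 genes, 7.06% were higher and 9.28% lower. Of the NK list 5 of 8 genes were then lower, of the naive list 8 of 9 and of the cytotoxic list 2 of 8.

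Ifng, the cytokine with which the study was concerned, was thus higher in Vsir-/- in both marked lineages and in NK-receptor cells (147 and 426 CPM, 1.54), while over all 180 cells its log2 ratio was -0.31. In this NK-receptor class 1 of the 9 Vsir-/- cells held 510 UMIs of the endothelium list and another 748 of the kidney tubule list. The ratio was 1.53 without cells holding at least 20 UMIs of other types, which left out the first of these but not the second. The direction was not particular to division. EM-like cells with Cd4 alone also had the higher Ifng level in Vsir-/-, as given above. In the NK cluster an Ifng UMI was found in 42.4% of WT and 76.1% of Vsir-/- cells. In cells with CD3 chains and neither marker Ifng was at 715 CPM in WT and 435 CPM in Vsir-/-, but 1 cell held 80.3% of the 259 WT UMIs, and without the cell with the most in each library the levels were 148 and 226 CPM, in the opposite order. The 16 Vsir-/- cells without lineage markers, CD3 chains or NK receptors had 4 Ifng UMIs and made up 623761 of the 1442154 UMIs of the Vsir-/- dividing cells. The ratio over all cells turned to 0.39 without the cell with the most Ifng UMIs in each library, to 0.47 with at least 3 receptor UMIs and to 0.13 with CD3 chains, so its sign is not a stable result. Over all cells 24.2% of 10003 genes were higher in Vsir-/- and 6.21% lower, and over cells with CD3 chains 8.15% and 5.07% of 7457, and the second comparison left out the 39 WT and 9 Vsir-/- NK-receptor cells, the 1 and 16 cells without CD3 chains or NK receptors, and 1 cell of each library with a lineage marker but without CD3 chains.

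**Figure D5:**
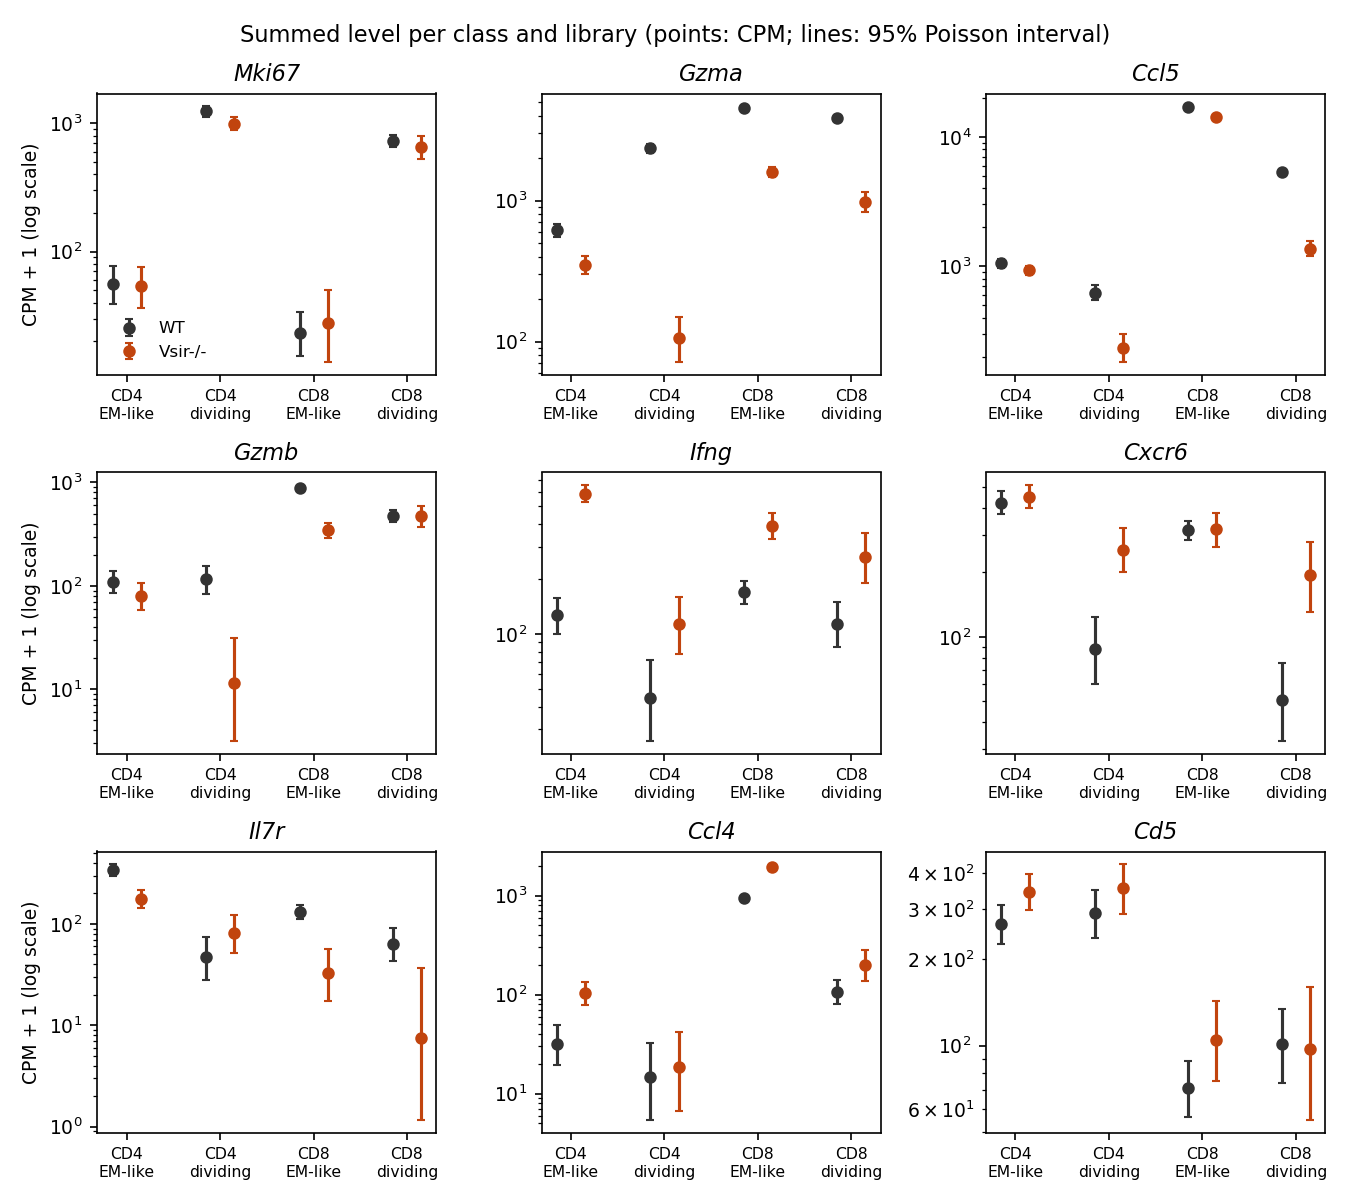
Summed level of 9 genes (y axis, CPM + 1, log scale) in EM-like and dividing cells with Cd4 or Cd8 alone (x axis) for each library; points are CPM and lines 95% Poisson intervals. In WT, Mki67 is higher and Cxcr6 and Il7r are lower in dividing than in EM-like cells of both lineages, and Gzma in CD4+ dividing cells stands at 2340 CPM in WT and 105 CPM in Vsir-/-.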

How the data were processed

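The 2 libraries of kidney cells (1 WT, 1 Vsir-/-) were analysed from the deposited UMI counts per gene and cell and the authors' table of cells, which gives cluster and genotype. Per the labels, the submitters' processing notes name Cell Ranger 3.1.0, R 4.0.3, Seurat 3.2.3 and build mm9; per the methods, the authors kept cells with at most 10% mitochondrial reads and clustered them after batch adjustment, here 16 clusters. Doublet removal was not given in the sources used here and no doublet caller was run. Of the deposited columns, 2 further per-sample columns were not used.

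Counts were summed over cells of a class, scaled to 1000000 UMIs (CPM) and compared as log2 ratios with a pseudocount of 0.5. A gene counted as higher or lower at 2-fold with at least 20 UMIs. Intervals at the 95% level were Clopper-Pearson for shares, exact Poisson for levels and exact conditional for ratios, and cover counting error only. With 1 library per genotype no test was made and no p-value is given. Genes were named from the marker lists and as the 10 highest and 10 lowest ratios among genes with at least 100 UMIs and 4 on each side. Members and lists were chosen with earlier results of these data known; other genes named were chosen after their values were seen. Scripts were run in Python 3.11.15 with numpy 2.4.6, scipy 1.17.1 and pandas 2.3.3 and tested on simulated data. Promoters came from RefSeq (GRCm38.p6), used for names and sequence, not for the authors' alignment.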

Additional observations from a re-analysis of the deposited data

How the results depend on the processing

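Of 401 values recomputed under another setting, 280 moved by less than their spread or by less than 1.5 times, 111 moved further and 10 changed sign; pseudocount, median centring and a denominator without tubule and mitochondrial UMIs moved none. No paired analysis was possible because each genotype had 1 library, and for the same reason no replicate could be left out. The cause of a change was not tested unless the setting itself shows it (fewer cells, genes or UMIs).

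With at least 2 UMIs of other cell types' lists (the kidney tubule list not counted) as a reason to leave a cell out, 14 WT and 20 Vsir-/- cells were left. In WT the share with Cd4 alone was then 0.0%, with Cd8 alone 71.4% and with neither 28.6%. The dividing share of Cd4-alone cells was 0.0% and the share with more S than G2/M UMIs 21.4%. With only the cells holding at least 2 Cd3d and Cd3e UMIs (chosen after seeing the data), 73 and 40 were left, with Cd4 alone 27.4%, Cd8 alone 43.8% and neither 26.0% in WT, and Cd4 alone 47.5% and neither 25% in Vsir-/-. Thinned to 1000 UMIs, WT had 6.14% Cd4 alone, 12.3% Cd8 alone, 81.6% neither and a dividing share of Cd8-alone cells of 2.19%, and Vsir-/- 7.58% Cd4 alone and 81.8% neither; thinned to 3000, WT had 7.14% Cd4 alone and 68.75% neither, and Vsir-/- 19.0% Cd4 alone. By nearest profile, 54.4% of WT cells matched a cluster named CD4+ and 12.3% clusters named CD8+, which are not lineage calls. With 2 UMIs to assign a lineage, the dividing share of WT Cd4-alone cells was 6.30% and 66.7% of Vsir-/- cells had neither marker, against 37.5% with at least 3 receptor UMIs. The MCM list against the passenger list put 29.8% of WT cells above 0.5.

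Over all dividing cells, the log2 ratio of Ifng (Vsir-/- over WT, -0.31) turned to 0.47 with at least 3 receptor UMIs, 0.67 and 0.46 without cells holding at least 2 or, chosen after seeing the data, at least 20 UMIs of other types, 0.13 with CD3 chains, 0.32 as a mean over cells and 0.39 without the top cells. That of Mki67 (-0.36) turned to 0.084, 0.29 and 0.015 under the first 3 of these and to 0.079 as a mean over cells.

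Counts of genes past 2-fold followed the UMI minimum, given here for at least 100 and at least 1 UMI. Vsir-/- over WT: 749 and 6123 higher and 256 and 1996 lower over all cells, 58 and 3627 higher and 28 and 1966 lower with Cd4 alone, 38 and 3348 higher and 39 and 1673 lower with Cd8 alone. Cd8 over Cd4 alone: 20 and 1935 higher and 20 and 1862 lower in WT, 24 and 2293 higher and 49 and 2214 lower in Vsir-/-. Dividing cells over T cell clusters: 1129 and 3428 higher and 594 lower (at least 100) in WT, 746 and 3361 higher and 290 and 2084 lower in Vsir-/-. The dividing share in Vsir-/- rests on 66 cells, and classes of 8 to 10 cells allow no fine ranking.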
